A study of Mus musculus with 11 samples.

Results

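Astrocytes from the olfactory bulb (OB) were set against astrocytes from the brainstem (BS), the most anterior and the most posterior region that the study sampled. The comparison takes the 3 OB and 3 BS samples by their titles, which are 6 of the 11 samples in the series; the 3 hippocampus and 2 cortex samples were left out. Each sample is RNA from eGFP-positive cells sorted from adult Aldh1l1-eGFP mice, aged 16 weeks and kept on a C57BL/6 background. In these mice a bacterial artificial chromosome places eGFP under the regulatory region of Aldh1l1, a folate enzyme gene used as a general astrocyte marker, so both groups carry the same transgene and neither was treated. The sources used here do not give the number of animals behind a sample or say that samples came from separate animals, and p-values therefore measure only the spread between these samples, which may be technical.

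Astrocytes buffer potassium, clear glutamate, GABA and glycine from synapses, supply neurons with metabolites and secrete proteins that build and prune synapses. They arise from the same regional progenitor domains as neurons, and those domains are set up in the embryo by transcription factors: EMX and LHX2 in the telencephalon, which forms the OB, and HOX, IRX and PAX proteins in the hindbrain, which forms much of the BS. The tissues also differ in what lies next to the astrocytes: the OB receives olfactory axons wrapped by ensheathing glia, and the BS is rich in myelinated tracts and borders the choroid plexus of the fourth ventricle.

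The deposited value of a gene is its read count divided by a size factor for the sample, without a correction for gene length, so values are compared between samples and not between genes. Reads on genes were 4503269 to 9425474 per OB sample and 2830746 to 5552215 per BS sample, so that BS values rest on fewer reads. The floor of 3 reads equals a value of 1.62 to 3.26 in OB and 3.15 to 6.31 in BS, which covers counting error only. The ribosomal RNA entry Rn45s took 17.96% to 25.6% of BS reads and 2.14% to 2.93% of OB reads. Lars2 and Mir6236, entries that can take up reads from ribosomal RNA, were higher in BS with it (log2 fold changes -3.96 and -4.31), and these are not read as expression. The Y-linked gene Ddx3y had reads in 1 sample of each region, OB 1 (641) and BS 3 (759.8), and 0 in the other samples. The study used mice of both sexes, and the labels used here do not give the sex of a sample.

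Astrocyte markers were present in both regions: all 42 core astrocyte genes on the list used here were detected, with summed values of 526429.5 to 613653 in OB and 239442 to 599759 in BS. Markers of other cells were present as well, and the BS samples differed in them. Choroid plexus markers summed to 377382 in BS 1, 78898 in BS 2 and 186852 in BS 3, against 2638 to 3181 in OB, and 17 of the 18 tested were called higher in BS by the rule given below (6.64% of all genes tested were). The count was 17 without BS 1. Members without an OB read, such as Slc4a5, passed the filter through BS reads alone and could be called higher only there. Ttr, the thyroxine and retinol carrier that epithelium of the choroid plexus makes in bulk, stood at 6.52, 16.6 and 5.39 in OB and 221911, 46376 and 108256 in BS. The core astrocyte sum ran in the opposite order, 239442 in BS 1, 599759 in BS 2 and 360388 in BS 3. By these sums BS 1 was the highest of the 6 samples in choroid plexus markers and the lowest in astrocyte genes, and BS 2 was the BS sample nearest to OB in both.

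Ependymal markers (10 of 14 higher in BS, summed values 549 to 1953 against 169 to 247) followed the same order of BS samples. For ependymal markers, the BS-high count was 6 without BS 1. Called members without an OB read, such as Ak7, could only be called on the BS side. Oligodendrocyte markers were called higher in BS for 12 of 15 (sums 54733 to 93868 against 10259 to 16965), Mbp, the myelin basic protein gene, among them at 8301, 6602 and 3846 in OB and 37477, 45114 and 65569 in BS. Meningeal fibroblast sums were 1907 to 9559.5 in BS and 685 to 1014 in OB, with 2 of 12 called. For fibroblast markers, the BS-high count was 4 without BS 2 or by DESeq2. In the other direction, 10 of 13 olfactory ensheathing glia markers and 4 of 7 olfactory sensory neuron markers were higher in OB, where 6.8% of all genes tested were called. Of the sensory neuron markers called, Omp, S100a5 and Stoml3 had no BS read. They passed the filter through OB reads alone and could be called higher only there, as could the ensheathing glia marker Prss56. For ensheathing glia, the OB-high count was 5 without OB 2 and 6 without OB 3, and the BS-high count 1 without OB 2. Omp, the marker of mature olfactory sensory neurons, had 239, 133 and 98.6 in OB and 0 in all 3 BS samples. Neuron markers were split, with 5 higher in OB, led by Camk2a and Gad1, and 6 higher in BS, led by the neurofilament genes Nefh, Nefm and Nefl. For neuron markers, the OB-high count was 3 without OB 2 or with astrocyte gene scaling. Oligodendrocyte precursor markers (0 of 9 called) and the immediate early genes that rise on dissociation (0 of 24) gave no call by limma, and 1 microglial marker (in OB) and 1 endothelial marker (in BS) were called. For microglial markers, the OB-high count was 0 without OB 1, OB 2, BS 1 or the mean-variance trend or with astrocyte gene scaling and 2 without OB 3. For endothelial markers, the BS-high count was 0 without BS 3 or the mean-variance trend or with all 11 samples, 3 without OB 1, 2 without OB 2 and 5 with astrocyte gene scaling. At an unadjusted p under 0.05, limma, edgeR and DESeq2 each found 1 of the precursor markers higher in BS. For the immediate early genes limma found 1 higher in OB, and edgeR and DESeq2 each 1 higher in OB and 2 higher in BS. In bulk samples such as these, fewer cells of a type and less RNA per cell cannot be told apart.

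**Figure D1:**
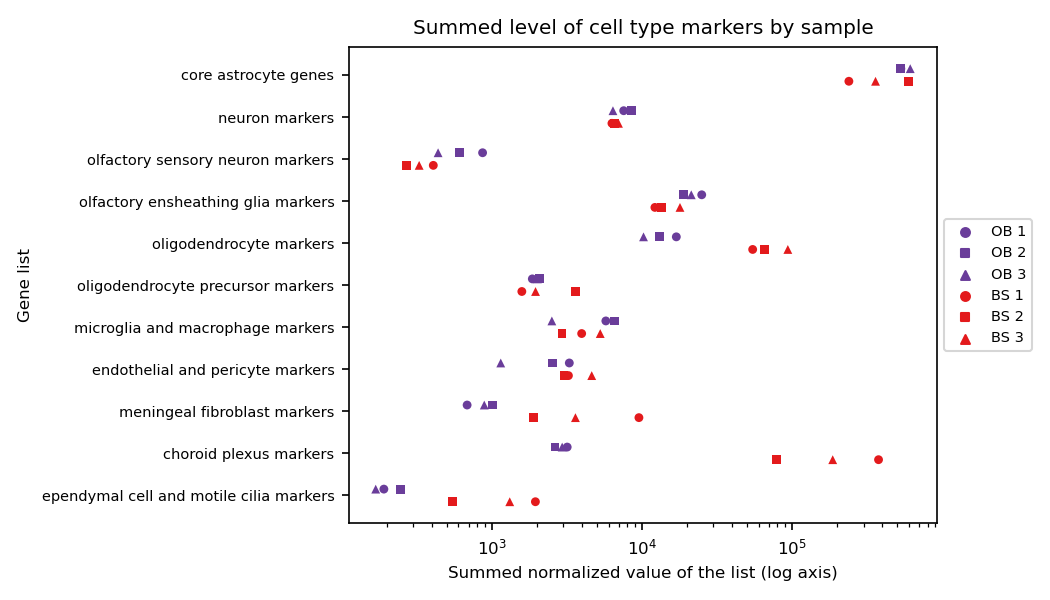
Summed normalized value of each cell type marker list in the 6 samples, on a log axis, with OB in purple and BS in red and the marker shape giving the sample number. The 3 BS samples lie above the 3 OB samples for choroid plexus, ependymal, oligodendrocyte and fibroblast markers, and BS 1 has the lowest astrocyte sum of all 6.

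The libraries of a region resembled each other more than those of the other region. Correlations of log2 values across the 12534 genes tested were 0.934 to 0.948 within OB, 0.888 to 0.918 within BS and 0.754 to 0.831 between regions (a description, since genes are not independent replicates). The grouping by region took up 58.0% of the variance of all genes tested. Any grouping of so few samples takes up part of the variance. Sample features that differ with region, such as the Rn45s share of reads, cannot be told apart from region here.

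A gene was called when its adjusted p (limma on log2 values, Benjamini-Hochberg) was under 0.05, its fold change over 1.5 and its value over 5 in at least 2 samples of a region. Of 12534 genes tested, 1684 (13.4%) were called, 852 (6.8%) higher in OB and 832 (6.64%) higher in BS. The counts of called list members below are to be read beside these shares. The differences were large: the median size was 1.63 on the log2 scale for OB-high genes and 2.06 for BS-high genes, with 97 and 144 genes beyond 16-fold. In 851 of the 852 and 827 of the 832 the 3 samples of a region all exceeded the 3 of the other, a separation seen in 16.0% of all genes tested with OB above BS and in 14.8% with BS above OB. The genes were called on these same samples, so their sizes and separation follow in part from the call rule. Among the largest differences in OB were those in Chrdl1, Lhx2, Frzb and Npy, and in BS those in Ttr, Slc4a5, Prlr, Kl and Cyp26b1. Slc4a5, Prlr and Kl are on the choroid plexus list. The order of the BS samples that choroid plexus markers show (BS 1 over BS 3 over BS 2) was found in 44.8% of BS-high genes and 20.7% of all genes tested. The reverse order, that of the core astrocyte genes, was found in 35.1% of OB-high genes and 21.7% of all. An order of 3 samples does not tell the cell source of a single gene, here or below. The part of these cell types in single results was not tested.

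Leaving out 1 sample gave 997 to 2406 calls, with 1081 without OB 1, 997 without OB 2, 1010 without OB 3, 1067 without BS 3 and 2406 without BS 2. Of the calls, 776 remained called in all 6 such fits, and 774 of these were also called by edgeR and DESeq2. No gene called in the main comparison was called in the opposite direction under any alternative. When each sample was scaled to its core astrocyte genes instead (called astrocyte gene scaling below, chosen after seeing the data), the median of all genes moved to -0.52 and the split became 354 higher in OB and 1425 higher in BS (19.9% in OB, against 50.6% with the deposited scaling). Another alternative dropped limma's mean-variance trend, by which the spread of a gene is drawn toward that of genes of similar level. A called gene whose value is given below for every sample kept its call under every alternative run unless the adjusted p that ended the call is printed with it. Called genes given by symbol alone did not all do so.

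**Figure D2:**
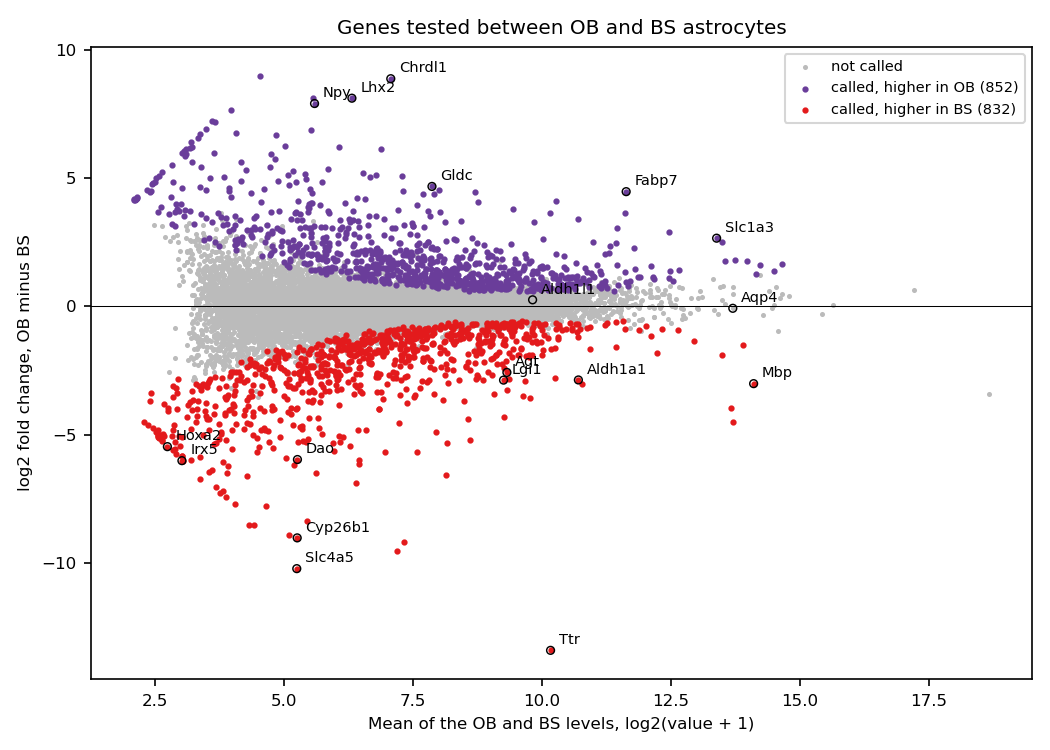
log2 fold change (OB minus BS) of the 12534 genes tested against the mean of the OB and BS levels on the log2(value + 1) scale, with 852 genes called higher in OB in purple, 832 higher in BS in red and the rest in grey. Patterning factors (Lhx2, Hoxa2, Irx5) and choroid plexus genes (Ttr, Slc4a5) lie at the extremes, while the astrocyte markers Aldh1l1 and Aqp4 lie near 0.

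Transcription factors that pattern the embryonic neural tube were separated by region in these adult cells. Lhx2 (chromosome 2, 38339281 to 38369733, + strand, GRCm38), a LIM-homeodomain selector of cortical and olfactory fate, had 1059.8, 1253 and 1426 in OB and 2.10, 8.01 and 2.10 in BS. The 3 OB samples were alike and the BS samples were at or near the floor, with a log2 fold change of 8.13 ± 0.44 (SE, limma adjusted p = 2.44e-06). Nr2e1, which keeps neural stem cells in the undifferentiated state, showed 391, 395 and 505 in OB and 5.26, 0 and 6.31 in BS, a log2 fold change of 6.90 ± 0.69 (SE, limma adjusted p = 0.00012). Sp8, needed for OB interneurons, had 242, 278 and 271 in OB and 2.10, 0 and 4.21 in BS, a log2 fold change of 6.71 ± 0.63 (SE, limma adjusted p = 8.59e-05). Emx2, a homeobox gene of the dorsal telencephalon, had 41.3, 67.1 and 85.1 in OB and 0, 2.003 and 0 in BS, a log2 fold change of 5.44 ± 0.77 (SE, limma adjusted p = 0.000981).

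In all, 18 of 26 tested forebrain factors were called higher in OB and 2 higher in BS, with a median log2 fold change of 2.84 against 0.03 over all genes tested. A further 20 of the 46 listed had too few reads to be tested. For forebrain factors, the BS-high count was 1 without OB 1, OB 2, BS 3 or the mean-variance trend. Fezf2, Dmrta2 and Dlx1 were among the OB-high members with 0 or few reads in BS. Members with no BS read passed the filter through OB reads alone and could be called higher only there. Dlx1, Sp8 and the Dlx antisense transcript Dlx6os1 are also expressed by OB interneurons, and the neuroblast genes Dcx (415, 363 and 268 in OB, 9.46, 16.03 and 33.7 in BS) and Dlx6os1 (99.9, 148 and 122 in OB, 0 in all 3 BS samples) were higher in OB with them. The exceptions were Otx2 and Nr2f1. Otx2 is on the choroid plexus list too and had 40.2, 29.2 and 53.9 in OB and 2445, 609 and 1223 in BS, in the order of the choroid plexus markers. Nr2f1, at 58.6, 50.5 and 99.1 in OB and 142, 292 and 185 in BS, had an adjusted p of 0.015 by limma, and of 0.0554 without the mean-variance trend, 0.0604 without OB 1, 0.0686 without OB 2 and 0.0548 without BS 3.

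The posterior factors differed in the opposite direction. Of 39 Hox genes, 15 had reads in BS only, 1 had reads in both and 23 had none, with 388 Hox reads over the 3 BS libraries and 1 over the 3 OB libraries. The BS reads fell on the anterior paralogues: 6 of the 8 genes of groups 1 to 3 and 9 of the 10 of groups 4 to 6 had BS reads (233 and 153 reads). In groups 7 to 9 there were 2 BS reads, and in groups 10 to 13 none, which at these depths allows up to 3 reads per library. Only Hoxa2 and Hoxa5 passed the filter, and both were called. Neither had an OB read, so both passed through their BS reads alone and a call could only fall on the BS side. For Hox genes, the BS-high count was 8 without the filter and 4 without BS 1. Hoxa2 (chromosome 6, 52162417 to 52164831, - strand), which sets the identity of the second branchial arch and of hindbrain segments, had 0 in all 3 OB samples and 39.9, 44.1 and 46.3 in BS, at least 17.996-fold higher in BS against the floor of 3 reads per OB library (limma adjusted p = 0.000952). Hoxa5 (chromosome 6, 52201754 to 52204587, - strand) had 0 in all 3 OB samples and 21.03, 16.03 and 39.99 in BS, at least 10.6-fold higher (adjusted p = 0.00526, limma). Hoxb3 and Hoxc4, which were not tested for lack of reads, had no OB read; Hoxb3 had 47.3, 4.01 and 39.99 in BS, and Hoxc4 had 19.97, 16.03 and 6.31 in BS. The order of the BS samples varied among Hox genes: Hoxb2, Hoxb3, Hoxb5 and Hoxd4 followed the choroid plexus order, and Hoxa2, Hoxa3, Hoxa5 and Hoxd3 did not.

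Hindbrain, midbrain and ventral factors were called higher in BS for 8 of 15 tested and higher in OB for 1, Pbx3 (adjusted p = 0.0026 by limma, and 0.144 with astrocyte gene scaling). Irx5 had 0 in all 3 OB samples and 69.4, 74.1 and 50.5 in BS, at least 26.8-fold higher in BS (limma adjusted p = 0.000361). Irx2, from the same Iroquois cluster family of posterior and dorsoventral identity factors, had 0 in all 3 OB samples and 36.8, 40.1 and 35.8 in BS. Lmx1a, a roof plate and midbrain factor, had 0 in all 3 OB samples and 128, 102 and 86.3 in BS, and Pax3, a dorsal neural tube factor, 0 in all 3 OB samples and 43.1, 30.1 and 27.4 in BS. All 4 had no OB read in any library, so they passed the filter through BS reads alone. Their BS samples lay close together. Nkx6-2, a ventral homeobox factor that mature oligodendrocytes also express, had 1.09, 0.789 and 0 in OB and 14.7, 74.1 and 63.1 in BS, and Nkx6-1 (not tested) had 19.97, 12.02 and 21.05 in BS and 0 in OB. En2 and Meis1 were among the other BS-high members. Not every patterning gene was separated: Zic1, of a dorsal neural tube factor family, had 286, 249 and 393 in OB and 443, 176 and 286 in BS, overlapping ranges with an adjusted p of 0.875 by limma.

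**Figure D3:**
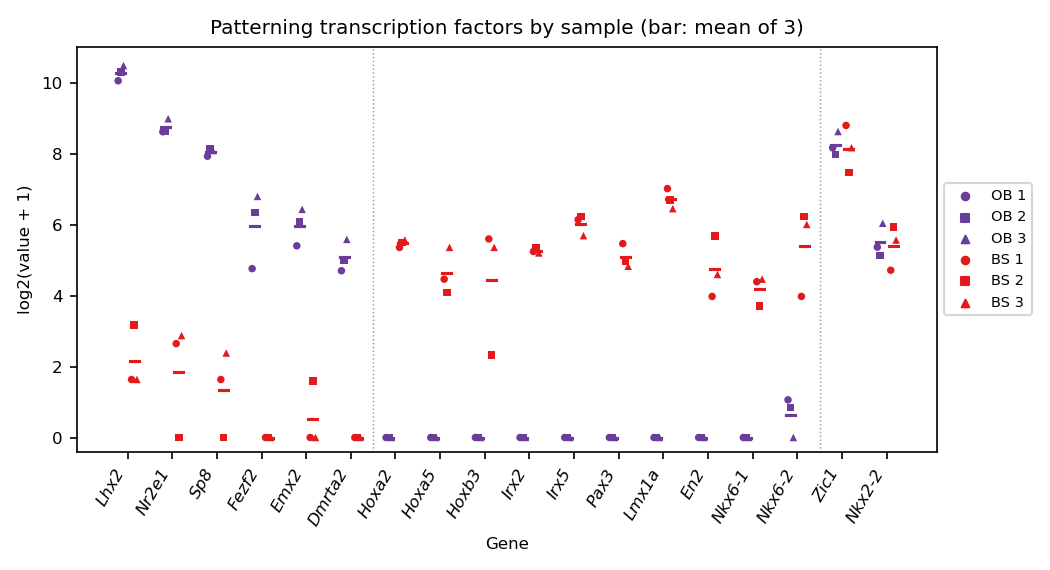
Level of 18 patterning factors on the log2(value + 1) scale in each sample, OB in purple and BS in red, with the marker shape giving the sample number and a bar at the mean of 3. The left block holds forebrain factors with OB values above all BS values, the middle block posterior factors with OB values at or near 0, and the right block Zic1 and Nkx2-2, whose ranges overlap.

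The start site windows of 4 homeobox genes that were separated by region, 2 from each side, are shown to compare their sequence, and with it the TAAT core that homeodomain proteins are known to bind. The windows are RefSeq sequence (GRCm38.p6, 250 bases before to 50 after the start, 5′ to 3′ on the strand of the gene), and capitals mark TAAT or its reverse complement ATTA. They lie at chr2:38339031-38339330 (Lhx2, + strand, the window nearest the annotated start of the 2 that the table holds), chr19:59458440-59458739 (Emx2, + strand), chr6:52164782-52165081 (Hoxa2, - strand) and chr6:52204538-52204837 (Hoxa5, - strand).
Lhx2: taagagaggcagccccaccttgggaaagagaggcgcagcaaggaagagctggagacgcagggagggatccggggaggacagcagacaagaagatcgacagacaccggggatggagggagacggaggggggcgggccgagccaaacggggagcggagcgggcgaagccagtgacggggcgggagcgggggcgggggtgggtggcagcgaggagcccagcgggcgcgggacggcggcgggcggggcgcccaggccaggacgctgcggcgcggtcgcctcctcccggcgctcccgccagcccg
Emx2: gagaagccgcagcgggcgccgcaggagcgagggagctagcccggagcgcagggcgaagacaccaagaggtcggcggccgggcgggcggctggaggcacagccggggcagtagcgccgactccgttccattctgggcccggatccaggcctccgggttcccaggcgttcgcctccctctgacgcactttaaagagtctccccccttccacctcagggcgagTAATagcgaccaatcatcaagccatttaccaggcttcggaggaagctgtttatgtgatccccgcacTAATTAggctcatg
Hoxa2: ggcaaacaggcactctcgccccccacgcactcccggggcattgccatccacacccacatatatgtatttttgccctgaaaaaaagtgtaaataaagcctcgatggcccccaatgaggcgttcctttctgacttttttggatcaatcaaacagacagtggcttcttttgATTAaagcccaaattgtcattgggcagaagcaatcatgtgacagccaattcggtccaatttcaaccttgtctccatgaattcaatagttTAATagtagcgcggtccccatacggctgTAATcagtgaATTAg
Hoxa5: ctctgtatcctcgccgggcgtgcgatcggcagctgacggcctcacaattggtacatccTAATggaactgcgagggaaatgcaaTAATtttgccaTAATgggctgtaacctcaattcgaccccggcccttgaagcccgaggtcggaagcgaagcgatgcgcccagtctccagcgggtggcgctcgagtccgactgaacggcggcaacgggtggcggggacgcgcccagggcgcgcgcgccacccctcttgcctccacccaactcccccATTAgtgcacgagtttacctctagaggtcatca

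Neither Lhx2 window held TAAT on either strand. The Emx2 window held 3, of which 2 overlap as TAATTA, and the Hoxa2 and Hoxa5 windows 4 each. CG dinucleotides numbered 34 in the Lhx2 window shown, 26 in Emx2, 29 in Hoxa5 and 9 in Hoxa2. Across the OB-high patterning factors, 16 of 20 windows (80%, 13 of 19 genes matched) held the motif, and across the BS-high ones 9 of 14 (64.3%, 9 of 12 genes matched). The shares were 42.0% of windows of all genes tested, 46.9% of OB-high, 43.3% of BS-high and 58.0% of all 32851 windows. These are matches of letters only, in a window that was not measured here.

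Some general astrocyte markers overlapped between the regions. Aldh1l1 itself, whose regulatory region drives the eGFP used for sorting, had 974, 943 and 959.9 in OB and 623, 1256 and 657 in BS, with overlapping ranges and an adjusted p of 0.576 by limma. Aqp4, the water channel of astrocyte endfeet, had 12440.1, 11807 and 13521 in OB and 9275, 20767 and 11980.2 in BS, also overlapping. Their directions, 0.26 and -0.07, are not read as differences, and that of Aldh1l1 turned with astrocyte gene scaling, while Aqp4 was called higher in BS with it (adjusted p = 0.00922, limma). Of the 42 core astrocyte genes 12 were called higher in OB and 0 higher in BS, with a median of 0.36 that became -0.19 when each sample was scaled to this list. At an unadjusted p under 0.05, 14 were higher in OB and 1 in BS by limma, 13 and 1 by edgeR, and 14 and 2 by DESeq2. BS 1 had the lowest core astrocyte level, and without it 12 were higher in OB and 2 in BS. Without BS 2, which had the highest level in BS, 18 were higher in OB. The list scaled to itself gave 8 higher in OB and 11 higher in BS. For core astrocyte genes, the OB-high count was 7 without OB 3 or BS 3, and the BS-high count 1 with all 11 samples or total-count scaling or by DESeq2, 2 without BS 1 and 11 with astrocyte gene scaling.

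The largest of the core differences was in Slc1a3, the glutamate transporter GLAST, at 21010.1, 25941 and 29652 in OB and 1953, 6315 and 5142 in BS. Every OB sample was above every BS sample, with a log2 fold change of 2.66 ± 0.40 (SE, limma adjusted p = 0.00134). The other astrocytic transporter, Slc1a2 (GLT-1), had 169532, 162749 and 199406 in OB and 61764, 208927 and 113316 in BS, where BS 2 exceeded OB (adjusted p = 0.656, limma). Gfap, the intermediate filament gene, had 4028, 3168 and 3321 in OB and 1159.6, 1779 and 1427 in BS, a log2 fold change of 1.28 ± 0.21 (SE, limma adjusted p = 0.00204), and Vim, which encodes a partner filament, had 1333, 1058 and 1123 in OB and 224, 176 and 459 in BS, a log2 fold change of 2.15 ± 0.31 (SE, limma adjusted p = 0.00101). Glul, the glutamine synthetase that converts the glutamate taken up, had 44189, 42567 and 48329.8 in OB and 9829.7, 18703 and 16055 in BS, a log2 fold change of 1.65 ± 0.36 (SE, limma adjusted p = 0.0113). Its adjusted p rose to 0.0655 without OB 1, 0.0614 without OB 2, 0.0583 without OB 3 and 0.0642 without BS 3.

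The glutamate cycle was split: 5 of 14 members were higher in OB and 4 higher in BS. The OB-high members included Slc1a3 and Glul, and the BS-high members included the aminotransferase genes Got1 and Got2 and the glutamine transporter gene Slc38a1, which neurons also express. Their calls were lost in part: the adjusted p was 0.0535 to 0.154 without OB 1, OB 2, OB 3, BS 1, BS 3 or the mean-variance trend for Got1. It was 0.0636 to 0.082 without OB 2, OB 3, BS 3 or the mean-variance trend for Got2. For Slc38a1 it was 0.0561 to 0.15 without OB 1, OB 3, BS 1, BS 3 or the mean-variance trend. For the glutamate cycle, the OB-high count was 3 without the mean-variance trend and 2 without OB 1, OB 3 or BS 3 or with astrocyte gene scaling, and the BS-high count 0 without the mean-variance trend, 2 without OB 1, OB 2 or BS 1 and 1 without OB 3 or BS 3. Ionotropic receptor subunits were higher in OB for 8 of 16 and in BS for 2. Gria2, the AMPA receptor subunit that blocks calcium entry, had 2309, 2943 and 2412 in OB and 329, 539 and 396 in BS, a log2 fold change of 2.62 ± 0.21 (SE, limma adjusted p = 3.55e-05). Gria4, another AMPA subunit, ran the other way at 759, 622 and 629 in OB and 1202, 3093 and 2326 in BS, a log2 fold change of -1.62 ± 0.30 (SE, limma adjusted p = 0.0043). Grin2b, an NMDA receptor subunit, had 232, 374 and 245 in OB and 53.6, 18.03 and 27.4 in BS, a log2 fold change of 3.17 ± 0.41 (SE, limma adjusted p = 0.000529). Camk2a, a kinase of excitatory neurons, was higher in OB beside them, at 991, 1348 and 912 in OB and 55.7, 14.02 and 109 in BS. Neuron markers as a list were split, 5 higher in OB and 6 in BS, and their part in the receptor values was not tested. For ionotropic subunits, the OB-high count was 4 without OB 2 or the mean-variance trend and 5 without OB 1 or with astrocyte gene scaling, and the BS-high count 1 without OB 3 or BS 3. Among metabotropic receptors, 1 of 6 was called, Grm3, the main group II receptor of adult astrocytes, at 1225, 1565 and 1821 in OB and 216, 693 and 587 in BS, a log2 fold change of 1.77 ± 0.37 (SE, limma adjusted p = 0.00912). Its adjusted p was 0.0728 without the mean-variance trend and 0.0519 without OB 2. For metabotropic receptors, the OB-high count was 2 without BS 2 or by DESeq2 and 0 without OB 2 or the mean-variance trend. Grm5, at 307, 507 and 288 in OB and 219, 639 and 293 in BS, had overlapping ranges (adjusted p = 0.957, limma).

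Genes of glycine, serine and D-serine handling were split, and the enzyme genes Gldc and Dao differed in opposite directions. In their list, 6 of 17 members were higher in OB and 4 in BS. Gldc (chromosome 19, 30098447 to 30175429, - strand), the decarboxylase of the glycine cleavage system that degrades glycine, had 1084, 1104 and 1313 in OB and 36.8, 62.1 and 37.9 in BS. All OB samples lay far above all BS samples, a log2 fold change of 4.68 ± 0.25 (SE, limma adjusted p = 2.44e-06). Dao, the D-amino acid oxidase that destroys D-serine, was the reverse, at 3.26, 7.11 and 1.62 in OB and 222, 242 and 413 in BS, a log2 fold change of -5.97 ± 0.53 (SE, limma adjusted p = 6.18e-05). BS 3 was the highest sample in Dao. The order of the BS samples in Dao was that of the oligodendrocyte marker sums, and the part of those cells was not tested. Slc6a9, the glial glycine transporter GLYT1, had 1888, 1509 and 2002 in OB and 1213, 2182 and 1484 in BS and was not called (adjusted p = 0.693, limma). The serine synthesis enzymes Phgdh and Psat1 were called higher in OB, with log2 fold changes of 1.14 and 1.16. For Phgdh the adjusted p was 0.0561 to 0.175 without OB 1, OB 2, OB 3 or the mean-variance trend, or with astrocyte gene scaling, and for Psat1 0.0538 without the mean-variance trend and 0.0822 with astrocyte gene scaling. Of the BS-high members, the glycine receptor subunit gene Glra1 (1.09, 0.789 and 2.15 in OB, 33.6, 26.04 and 35.8 in BS) and Slc6a5, the neuronal glycine transporter GLYT2, are known from glycinergic circuits. Slc6a5 had an adjusted p of 0.0605 to 0.0684 without OB 1, OB 2, BS 1 or BS 3. Neurofilament genes such as Nefl (36.9, 31.6 and 32.3 in OB, 474, 311 and 490.4 in BS) were higher in BS beside them. The neuron markers as a list were split, 5 higher in OB and 6 in BS, and their part in these values was not tested. For glycine and serine genes, the OB-high count was 3 without OB 1 or the mean-variance trend and 2 with astrocyte gene scaling, and the BS-high count 2 without OB 1 or BS 3.

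For GABA, 5 of 21 were higher in OB and 3 in BS. Gad1, the GABA-synthesising enzyme of neurons, had 473, 361 and 301 in OB and 67.3, 28.05 and 21.05 in BS, a log2 fold change of 3.40 ± 0.41 (SE, limma adjusted p = 0.000341). Aldh1a1, an aldehyde dehydrogenase that makes retinoic acid and also GABA, had 602, 553 and 617 in OB and 3346, 7609 and 3155 in BS, a log2 fold change of -2.87 ± 0.30 (SE, limma adjusted p = 0.000144), with BS 2 the highest. The astrocytic transporter gene Slc6a11 (GAT-3), at 26319, 26056 and 32499 in OB and 7477, 20819 and 10848 in BS, missed the threshold (adjusted p = 0.0591, limma), with BS 1 the lowest sample. It was called higher in OB in other fits, with an adjusted p of 0.00563 by DESeq2, 0.0171 with all 11 samples, 0.0242 with total-count scaling, 0.0014 without BS 2 and 0.0117 with astrocyte gene scaling. For GABA genes, the OB-high count was 2 without OB 3 or the mean-variance trend, 1 without OB 1, OB 2 or BS 3, 3 without BS 1 and 9 without BS 2, and the BS-high count 1 without BS 3 or the mean-variance trend and 5 with astrocyte gene scaling.

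Among 35 potassium channel genes, 10 were higher in OB and 4 in BS. Kcnj10, the Kir4.1 channel that carries most glial potassium uptake, had 32855, 26678 and 34048 in OB and 16722, 41742 and 18939 in BS, with overlapping ranges (adjusted p = 0.615, limma, and 0.0331 without BS 2). Kcnk2 (TREK-1), a background leak channel, had 645, 906 and 787 in OB and 37.8, 60.1 and 86.3 in BS, a log2 fold change of 3.71 ± 0.30 (SE, limma adjusted p = 3.55e-05), and Kcnd3, an A-type channel, 1016, 1006 and 1195 in OB and 158, 250.4 and 202 in BS, a log2 fold change of 2.41 ± 0.21 (SE, limma adjusted p = 5.4e-05). Of the BS-high channels, Kcnj13 is a choroid plexus marker, at 76.01, 3.16 and 16.7 in OB and 1862, 389 and 1038 in BS. Kcnq3, which forms the M-current of neurons, had 7.60, 29.2 and 10.2 in OB and 138, 218 and 130.5 in BS. For potassium channels, the OB-high count was 4 without OB 1 and 5 without OB 2 or with astrocyte gene scaling. Gap junction, water channel and endfoot genes were called for 2 of 24 in OB and 1 in BS, where 6.8% and 6.64% of all genes tested were. For endfoot genes, the OB-high count was 1 without OB 1, OB 2, OB 3, BS 3, the mean-variance trend or the filter, with a replicate block, a pseudocount of 0.25 or astrocyte gene scaling or by edgeR, 4 with all 11 samples or by DESeq2 and 9 without BS 2, and the BS-high count 3 with astrocyte gene scaling. Clcn2 was higher in OB and Gjc3, a connexin of oligodendrocytes, higher in BS. Dmd, the dystrophin gene, was called higher in OB, with an adjusted p of 0.0525 to 0.264 without OB 1, OB 2, OB 3, BS 1, BS 3, the mean-variance trend or the filter, or with edgeR, a replicate block, a pseudocount of 0.25 or astrocyte gene scaling. Gja1 (connexin 43) had 3674, 4708 and 4893 in OB and 2277, 3941 and 2915 in BS and Gjb6 (connexin 30) 1638, 1359 and 1980.1 in OB and 1553, 3153 and 2014 in BS, and neither passed (adjusted p = 0.156 and 0.395, limma). Gja1 was called higher in OB in 1 fit (adjusted p = 0.0197 without BS 2), and Gjb6 higher in BS in 1 (adjusted p = 0.00522 with astrocyte gene scaling). Of 30 receptors for other transmitters, 3 were higher in OB and 4 in BS. Htr2c, the serotonin receptor of the choroid plexus, led BS at 3.26, 13.4 and 3.23 in OB and 1674, 365 and 711 in BS in the choroid plexus order, and Gpr50, an orphan relative of the melatonin receptors, led OB at 153, 137 and 147 in OB and 3.15, 8.01 and 0 in BS. For these receptors, the OB-high count was 1 without OB 2 or with astrocyte gene scaling and 6 without BS 2, and the BS-high count 1 without OB 1 or BS 3, 2 without BS 2 and 8 with astrocyte gene scaling.

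**Figure D4:**
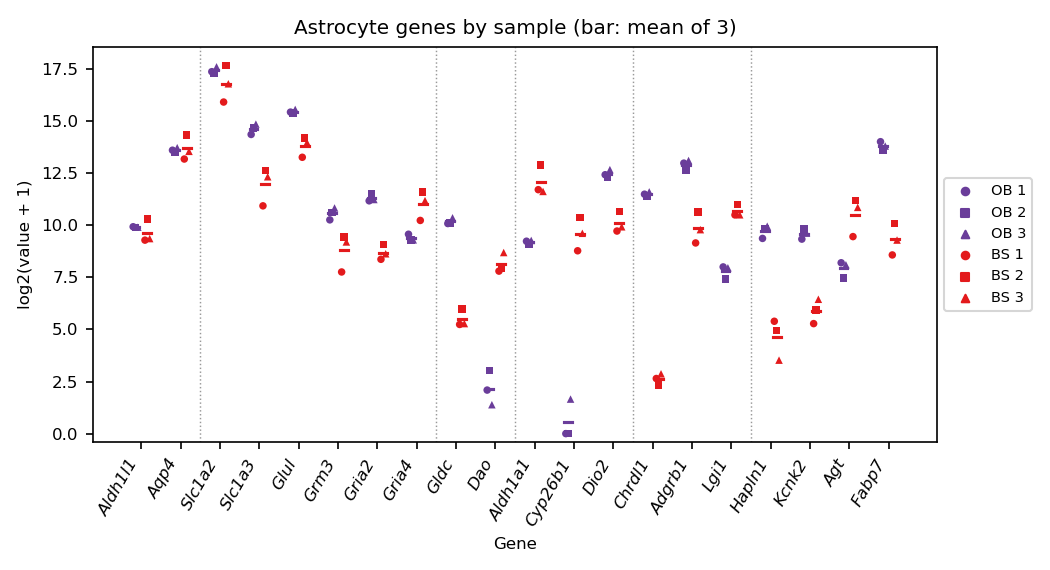
Level of 20 astrocyte genes on the log2(value + 1) scale in each sample, OB in purple and BS in red, with the marker shape giving the sample number and a bar at the mean of 3; dotted lines separate general markers, glutamate, glycine and D-serine, retinoid and thyroid hormone, synapse-organising and other genes. Aldh1l1, Aqp4 and Slc1a2 overlap between regions, whereas Gldc, Dao, Cyp26b1 and Chrdl1 are separated by more than the spread of either region.

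Secreted proteins that organise synapses included a gene with one of the largest OB-high differences. Chrdl1 (chromosome X, 143285674 to 143394262, - strand), the secreted chordin-like protein by which astrocytes drive the switch of synapses to calcium-impermeable AMPA receptors, had 2879, 2719 and 3111 in OB and 5.26, 4.01 and 6.31 in BS. The OB samples lay within a narrow range and the BS samples around the floor of 3 reads, a log2 fold change of 8.89 ± 0.26 (SE, limma adjusted p = 2.38e-08). Of 30 members of the list, 10 were higher in OB and 4 in BS. Adgrb1 (BAI1), an engulfment receptor, had 8091, 6387 and 8838 in OB and 568, 1595 and 884 in BS, a log2 fold change of 3.05 ± 0.32 (SE, limma adjusted p = 0.000165). The phagocytic receptor gene Mertk was called higher in OB at 873, 794 and 937 in OB and 219.7, 351 and 347 in BS, a log2 fold change of 1.53 ± 0.22 (SE, limma adjusted p = 0.000981), while Gas6, which encodes the ligand of MERTK and AXL, was higher in BS at 286, 266 and 222 in OB and 1489.7, 733 and 998 in BS. Lgi1, a secreted organiser of AMPA receptor complexes, had 255, 171 and 248 in OB and 1443, 2057 and 1450.2 in BS, a log2 fold change of -2.87 ± 0.22 (SE, limma adjusted p = 2.69e-05). Sparcl1 (hevin), which promotes synapse formation, had 47034, 49719.7 and 53343 in OB and 30752, 84548 and 41714 in BS and was not called (adjusted p = 0.951, limma). For the synapse list, the OB-high count was 6 without the mean-variance trend, and the BS-high count 2 without BS 3.

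Axon guidance genes and cadherins were called in OB more often than in BS. Of 63 axon guidance genes, 17 were higher in OB and 4 in BS, with a median of 0.51 (-0.04 with astrocyte gene scaling). The shares over all genes tested were 6.8% in OB and 6.64% in BS. Sema5a, a membrane semaphorin, had 3213, 2908 and 2439.6 in OB and 205, 331 and 345 in BS, a log2 fold change of 3.30 ± 0.23 (SE, limma adjusted p = 1.28e-05), and Epha5, an ephrin receptor, 734, 1172 and 772 in OB and 33.6, 114 and 75.8 in BS, a log2 fold change of 3.70 ± 0.39 (SE, limma adjusted p = 0.000156). Slit2, the secreted repellent read by ROBO receptors, was higher in BS at 19.5, 53.7 and 19.4 in OB and 1121, 435 and 579 in BS, and Sema3b at 0, 0.789 and 1.08 in OB and 211, 58.1 and 90.5 in BS. Both followed the choroid plexus order of BS samples. For axon guidance genes, the OB-high count was 11 without OB 1 or OB 2 and 9 with astrocyte gene scaling, and the BS-high count 2 without OB 3 or BS 3 and 8 with astrocyte gene scaling. Cadherins were higher in OB for 13 of 34 and in BS for 1, Cdh20 (256, 408 and 270.4 in OB, 669.7, 1118 and 802 in BS). Cdh4, the R-cadherin gene, had 798, 837 and 858 in OB and 5.26, 6.01 and 35.8 in BS, a log2 fold change of 6.15 ± 0.57 (SE, limma adjusted p = 7.55e-05), and Cdhr1, known from mitral and photoreceptor cells, had 141, 471 and 125 in OB and 0 in all 3 BS samples. For cadherins, the OB-high count was 7 without OB 3 or the mean-variance trend and 8 without OB 1, OB 2 or BS 3 or with astrocyte gene scaling, and the BS-high count 2 without OB 1 or BS 1 and 3 with astrocyte gene scaling.

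Extracellular matrix genes split, with 8 of 33 higher in OB and 6 higher in BS. The OB-high members included components of perineuronal matrix: Hapln1, a hyaluronan link protein, had 660.2, 902 and 991 in OB and 41.00, 30.1 and 10.5 in BS, a log2 fold change of 5.09 ± 0.43 (SE, limma adjusted p = 4.42e-05), Ncan (neurocan) 26588, 23091 and 28958 in OB and 2769, 8169.7 and 4218 in BS, a log2 fold change of 2.51 ± 0.37 (SE, limma adjusted p = 0.00111), and Tnc (tenascin C) 92.3, 160.3 and 99.1 in OB and 3.15, 6.01 and 27.4 in BS. The BS-high members included Hapln2, the link protein of nodes of Ranvier (1.09, 0.789 and 1.08 in OB, 48.4, 28.05 and 124 in BS), and the proteoglycan genes Spock3 and Spock1 (adjusted p of Spock1 0.0529 without BS 3). Hapln2 was highest in BS 3, as were the oligodendrocyte markers. Vcan (versican) had 281, 253 and 287 in OB and 227, 301 and 253 in BS and overlapped (adjusted p = 0.853, limma). The median of the list, 0.08, turned negative under edgeR, DESeq2, total-count scaling and astrocyte gene scaling. For matrix genes, the OB-high count was 4 with astrocyte gene scaling, and the BS-high count 3 without BS 3 and 10 with astrocyte gene scaling.

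Developmental signalling genes were higher in OB for 14 of 82 and in BS for 4, where 6.8% and 6.64% of all genes tested were. Frzb, a secreted Wnt antagonist and also an ensheathing glia marker, had 767, 642 and 712 in OB and 4.21, 0 and 2.10 in BS, a log2 fold change of 8.13 ± 0.58 (SE, limma adjusted p = 1.55e-05). Dkk3, of the Dickkopf family, had 858, 739 and 961 in OB and 104, 108 and 54.7 in BS, a log2 fold change of 3.30 ± 0.27 (SE, limma adjusted p = 4.42e-05). Fzd10, a Wnt receptor of the dorsal hindbrain and spinal cord in the embryo, had 0, 1.58 and 0 in OB and 25.2, 28.05 and 48.4 in BS. Genes that report Sonic hedgehog signalling did not pass the test: Ptch1 had 1491, 1527 and 1989 in OB and 1589.6, 3999 and 2244 in BS, Gli1 8.69, 10.3 and 15.1 in OB and 11.6, 42.1 and 69.5 in BS, and Hhip 26.1, 61.6 and 22.1 in OB and 85.2, 54.1 and 229 in BS (adjusted p = 0.274, 0.205 and 0.0918, limma). Other fits called them higher in BS, with an adjusted p of 0.00245 with astrocyte gene scaling for Ptch1, 0.0495 without BS 1 for Gli1, and 0.0184 by DESeq2, 0.0352 without BS 2 and 0.0459 with astrocyte gene scaling for Hhip. For signalling genes, the OB-high count was 9 without OB 2 or OB 3, 22 without BS 2 and 8 with astrocyte gene scaling, and the BS-high count 7 without BS 1 or BS 2 or by DESeq2, 1 without the mean-variance trend and 13 with astrocyte gene scaling.

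Retinoid and thyroid hormone genes were called mostly in BS, with 7 of 21 higher there and 1 higher in OB, and a median of -0.40. Ttr, a choroid plexus marker given above, was among the BS-high members, and Ttr and the thyroid hormone transporter gene Slco1c1 followed the choroid plexus order of BS samples. Cyp26b1, which degrades retinoic acid, had 0, 0 and 2.15 in OB and 437, 1316 and 783 in BS, a log2 fold change of -9.03 ± 0.61 (SE, limma adjusted p = 1.2e-05). BS 2 was the highest sample in Cyp26b1, as it was in Aldh1a1, which makes retinoic acid. Dio2, the deiodinase by which astrocytes turn thyroxine into active T3, was the OB-high member at 5501, 5071 and 6516 in OB and 844, 1631 and 972 in BS, a log2 fold change of 2.36 ± 0.25 (SE, limma adjusted p = 0.000166). Hr, a thyroid hormone response gene, had 22.8, 37.9 and 24.8 in OB and 82.00, 138 and 122 in BS, a log2 fold change of -1.97 ± 0.39 (SE, limma adjusted p = 0.0066), with BS 1 the lowest BS sample. For hormone genes, the OB-high count was 3 without the filter.

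Of 28 cholesterol genes, 2 (Apoe and Apod) were higher in OB and 1 (Insig1) higher in BS, where 6.8% and 6.64% of all genes tested were. Each of these 3 calls was lost under several alternatives. The adjusted p was 0.0567 to 0.127 without OB 1, OB 2, OB 3, BS 3, the mean-variance trend or the filter, or with a replicate block for Apoe. For Apod it was 0.0556 to 0.289 without OB 1, OB 2, OB 3, BS 2, BS 3, the mean-variance trend or the filter, or with edgeR, all 11 samples, a pseudocount of 0.25, total-count scaling or astrocyte gene scaling. For Insig1 it was 0.0507 to 0.15 without OB 1, OB 2, OB 3, BS 2, BS 3, the mean-variance trend or the filter, or with a replicate block. For cholesterol genes, the OB-high count was 1 with a pseudocount of 0.25, astrocyte gene scaling or total-count scaling or by edgeR and 0 without OB 1, OB 2, OB 3, BS 3, the mean-variance trend or the filter, and the BS-high count 2 with all 11 samples or by DESeq2, 0 without OB 1, OB 2, OB 3, BS 2, BS 3, the mean-variance trend or the filter or with a replicate block, 5 with total-count scaling, 4 without BS 1 and 8 with astrocyte gene scaling. Of 29 genes of glycolysis, lactate and glycogen, 4 were higher in BS, led by Gpd1 at 595, 478 and 561 in OB and 1075, 1961 and 1313 in BS, a log2 fold change of -1.37 ± 0.23 (SE, limma adjusted p = 0.00247), and 1 was higher in OB. For these metabolic genes, the OB-high count was 0 without OB 1, OB 2, OB 3 or the mean-variance trend or with astrocyte gene scaling and 4 without BS 2, and the BS-high count 1 without the mean-variance trend, 7 with total-count scaling, 2 without OB 2 and 12 with astrocyte gene scaling. Reactive astrocyte genes had 5 of 28 higher in OB, including Gfap and Vim above and Serpina3n, an acute-phase serpin, at 371, 559 and 336 in OB and 64.1, 124 and 90.5 in BS, a log2 fold change of 2.19 ± 0.30 (SE, limma adjusted p = 0.000776), and 2 higher in BS. For reactive genes, the BS-high count was 1 without OB 1, OB 3 or BS 3. Of the neuropeptide and hormone genes, 4 of 15 were higher in OB and 2 in BS. Npy, which ensheathing glia and OB interneurons make, had 936, 607 and 719.6 in OB and 2.10, 2.003 and 2.10 in BS, a log2 fold change of 7.92 ± 0.38 (SE, limma adjusted p = 1.85e-06), and Igf1 had 385, 532 and 457 in OB and 88.3, 28.05 and 48.4 in BS, a log2 fold change of 3.17 ± 0.37 (SE, limma adjusted p = 0.000302). Agt, the angiotensinogen gene expressed by astrocytes of the brainstem and hypothalamus, had 293, 178 and 274 in OB and 701, 2342 and 1856 in BS, a log2 fold change of -2.57 ± 0.39 (SE, limma adjusted p = 0.00134). BS 1 was the lowest BS sample in Agt, as in the core astrocyte genes. Fabp7, a lipid-binding protein of radial glia, of some adult astrocytes and of ensheathing glia, had 16510.1, 12292 and 14279 in OB and 381, 1089.8 and 625 in BS, a log2 fold change of 4.48 ± 0.32 (SE, limma adjusted p = 1.77e-05); in all 6 of 24 stem cell and neuroblast genes were higher in OB and 1 in BS. For stem cell genes, the BS-high count was 3 with astrocyte gene scaling.

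**Figure D5:**
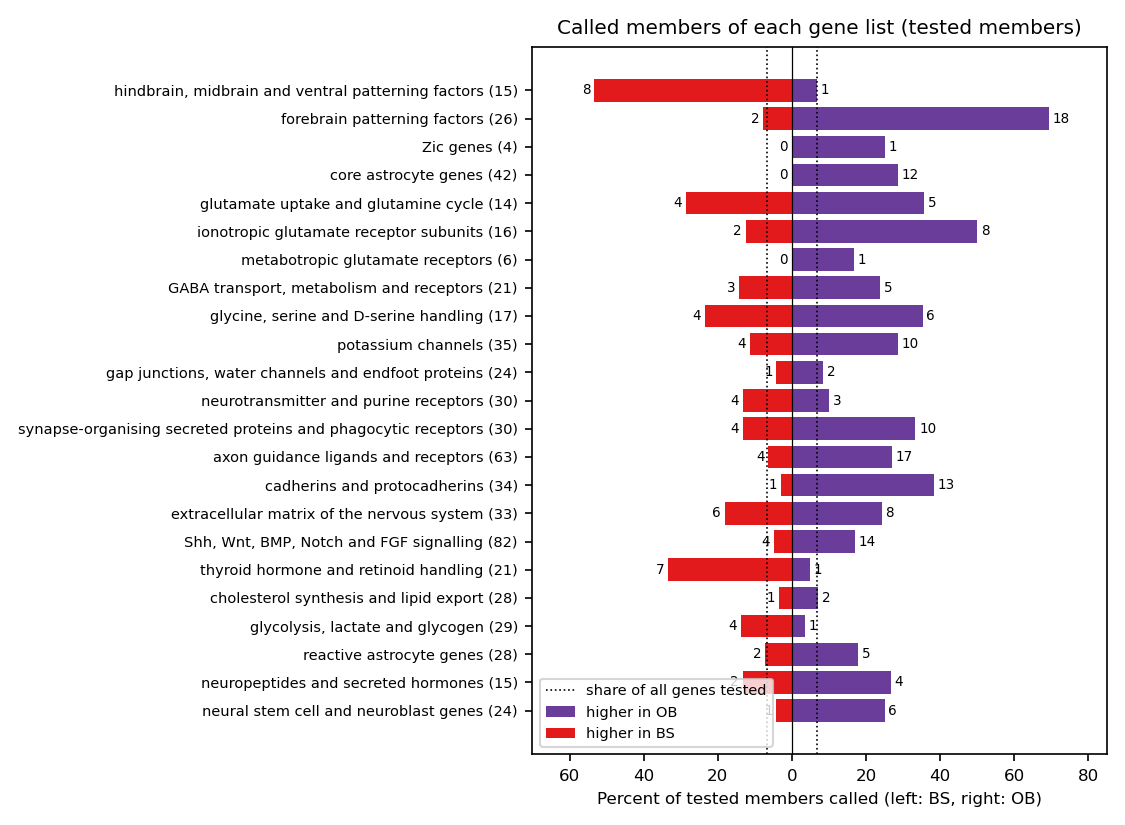
Percent of the tested members of each patterning and astrocyte gene list called higher in OB (right, purple) or in BS (left, red), with the number called at the end of each bar and the number tested in brackets; dotted lines mark the shares over all genes tested, 6.8% and 6.64%. Among these lists, which leave out the cell type markers, forebrain factors reach furthest to the OB side and posterior factors furthest to the BS side, while endfoot, cholesterol and glycolysis genes stay near the dotted lines on at least one side.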

How the data were processed

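RNA from eGFP-positive cells sorted by FACS was sequenced as rRNA-depleted, paired-end NuGEN Trio libraries. As the study's methods and the submitters' processing notes give it, the authors mapped reads with STAR 2.5.0a to mm10, counted them on UCSC transcripts and normalized with DESeq2 1.20.0. The deposited signal per gene is the read count divided by a size factor, with 24421 entries per sample. Each sample has a step of which its values above 0 are whole multiples (100%, tolerance 0.01), so reads were recovered. Whether counting used strand is not given in the sources used here, so overlapping and antisense genes and close paralogues are uncertain. Entries whose symbols had turned into dates (27) were kept in the tests and are not named.

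Samples were grouped by their titles. limma 3.58.1 in R 4.3.3 with a mean-variance trend, two-sided, compared log2(value + 1) of 3 OB with 3 BS samples among genes that edgeR's filterByExpr kept on those reads. The pseudocount understates fold changes of low genes. Adjusted p-values follow Benjamini and Hochberg over the 12534 genes tested, and SE is limma's moderated standard error. With 3 against 3 samples an exact permutation test cannot go below 0.10, so none is given for single values. Where a region had no read, folds are bounds against 3 reads per library (a mean value of 2.41 in OB and 5.16 in BS). Such a gene passed the filter through the other region alone and could be called higher only there. Genes were named as the 8 largest called differences in each direction with non-overlapping samples and a mean over 50, preset members of each list and up to 4 called members per list and direction, and factors named by the study. Some genes that the rule names are not reported here. Called list members given by symbol or fold change alone, and Mertk, Lars2, Mir6236 and Ddx3y, were chosen after their values were seen. The samples, lists and tests were chosen with earlier results of these data known, so no list is independent support. Alternatives were edgeR 4.0.16, DESeq2 1.42.0, all 11 samples, a replicate block, other pseudocounts, no filter, no trend, other scalings, other call rules and fits without each sample in turn. The main limma fit and the edgeR and DESeq2 fits were first tested on simulated data. The other alternatives were not. Python 3.11.15 was used for counts and plots. Coordinates are GENCODE on GRCm38, and promoter windows are RefSeq on GRCm38.p6. Samples of the other regions entered the fit of all 11 samples. They also entered the scaling of the deposited values, whose size factors matched DESeq2 factors computed over all 11 samples.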

Additional observations from a re-analysis of the deposited data

How the results depend on the processing

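No gene called in the main comparison was called in the opposite direction under any alternative. For genes that lost their call, direction was checked among the named genes only. With 1684 calls as deposited (852 higher in OB and 832 higher in BS), the other settings gave 1609 by edgeR, 2109 by DESeq2, 1908 with all 11 samples, 1595 and 1780 with pseudocounts of 0.25 and 5, 1652 without the filter, 1660 with total-count scaling, 1685 with TMM scaling, 1887 at an unadjusted p under 0.01 and 1689 without the fold and value rules. Without the mean-variance trend there were 1105 calls, 541 of them higher in OB and 564 higher in BS. Astrocyte gene scaling, added after seeing the data, gave 354 higher in OB and 1425 higher in BS. Leaving out 1 sample gave 997 to 2406 calls, 424 to 1279 higher in OB and 473 to 1127 higher in BS, and the cause of this range was not tested. The share of variance between regions was 58.0% to 67.0% when 1 sample was left out, the highest without BS 2, and 81.3% for the 500 genes of highest variance. Those 500 were picked on the same OB and BS samples, which favours genes that differ between regions. With the replicate number as a block 1572 genes were called, 802 higher in OB and 770 higher in BS. The numbers were not taken to pair the samples. Deviations of same-numbered samples correlated at 0.046, -0.033 and -0.116, and not every sample correlated best with its own number. With 3 samples per region, these correlations cannot tell whether same-numbered samples share animals. Of the calls of named genes the block ended those of Gabra3, Dmd, Adra1b, Apoe and Insig1. Over the named genes, 2419 results under other settings stayed on their side of the threshold, 30 gained and 99 lost their call; with 1 sample left out, 988 stayed, 12 gained and 176 lost it. Depth limits the BS side most: a BS value under 3.15 to 6.31 is less than 3 reads, and 37 of 39 Hox genes could not be tested.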

Other observations

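Some of the large differences lay outside the gene lists; the genes here were chosen after their values were seen. In OB, Hs3st3a1, a heparan sulfate 3-O-sulfotransferase, had 518, 465 and 613 in OB and 7.36, 14.02 and 23.2 in BS, a log2 fold change of 5.19 ± 0.39 (SE, limma adjusted p = 2.55e-05). Its paralogue Hs3st3b1 had 511, 519 and 548 in OB and 42.1, 80.1 and 58.9 in BS, and Chst2, a carbohydrate sulfotransferase, 5609, 4613 and 5853 in OB and 339, 587 and 627 in BS, so all 3 separated the regions without overlap. Kctd12, an auxiliary subunit of GABA-B receptors, had 14067, 9004 and 10204 in OB and 659, 914 and 1071 in BS, a log2 fold change of 3.65 ± 0.24 (SE, limma adjusted p = 1.13e-05), while the receptor subunit gene Gabbr2 was higher in BS at 238, 223 and 221 in OB and 309, 1430.4 and 766 in BS (adjusted p = 0.0294 by limma, and 0.128 without the mean-variance trend, 0.082 without OB 1, 0.108 without OB 2, 0.0879 without OB 3 and 0.115 without BS 3). Adam23, which encodes a receptor of LGI1, had 2056, 2741 and 3097 in OB and 159.8, 190.3 and 199.95 in BS, a log2 fold change of 3.82 ± 0.20 (SE, limma adjusted p = 2.44e-06), the opposite direction to Lgi1 itself. Dab1, the adaptor of reelin signalling, had 978, 1174 and 1124 in OB and 86.2, 120.2 and 118 in BS, a log2 fold change of 3.34 ± 0.20 (SE, limma adjusted p = 6.57e-06).

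In BS, Flrt2, a repulsive guidance and adhesion protein gene, had 52.1, 73.4 and 40.9 in OB and 626, 651 and 551 in BS, a log2 fold change of -3.47 ± 0.26 (SE, limma adjusted p = 2.17e-05), with the 3 BS samples close together. Asic1, an acid-sensing ion channel, had 76.01, 41.8 and 49.6 in OB and 322, 603 and 335 in BS, a log2 fold change of -2.87 ± 0.32 (SE, limma adjusted p = 0.000253), and Hsd11b1, which regenerates active glucocorticoid, had 131, 71.8 and 128 in OB and 600.3, 853 and 638 in BS, a log2 fold change of -2.68 ± 0.27 (SE, limma adjusted p = 0.000123). Both were highest in BS 2. Egfl6 had 40.2, 48.9 and 73.8 in OB and 190.3, 553 and 297 in BS, again highest in BS 2. Ace, the angiotensin-converting enzyme gene, had 26.1, 11.8 and 7.003 in OB and 1825, 264 and 766 in BS, a log2 fold change of -5.68 ± 0.64 (SE, limma adjusted p = 0.000235), in the choroid plexus order, whereas Agt, which encodes the precursor of its substrate, was lowest in BS 1.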
